A study of Homo sapiens with 15 samples.

Results

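The Notch receptors, ligands and target genes were followed in K-562 cells exposed to martinostat. Members were listed by gene symbol, with earlier results of these data known: the 4 receptors NOTCH1, NOTCH2, NOTCH3 and NOTCH4, the ligands JAG1 and JAG2, and the target genes HES1, HES4, HEY1 and NRARP. They were 10 of the 60649 genes in the count table, and all 10 were among the 23711 genes that passed the filter on low counts, JAG1 through treated libraries alone. K-562 is an established human line of chronic myeloid leukemia that carries the BCR-ABL fusion, and martinostat is an inhibitor of histone deacetylases (HDACs). Poly(A) RNA was sequenced in 15 libraries, as 5 groups of 3: untreated cells, and cells kept for 24 h in 0.15, 0.25, 0.5 or 1 µM martinostat. All groups were the same line in culture, with no other agent named, and no vehicle is given for the untreated cells. The labels call the libraries biological replicates without naming separate cultures. A legend of the paper on selected genes of this sequencing speaks of 3 independent experiments, without saying how they were separated. The p-values measure the spread between these libraries.

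Notch receptors are single-pass membrane proteins that are cut when a ligand on a neighbouring cell pulls on them. An ADAM protease makes the outer cut and gamma-secretase the inner one, and the freed intracellular domain then enters the nucleus, joins the DNA-binding factor RBPJ and a Mastermind co-activator, and switches on target genes. Without that domain, RBPJ holds co-repressors that recruit HDACs. In blood, NOTCH1 directs T cell development and NOTCH2 the development of some B cells.

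Libraries held between 23755510 and 32805574 counts, and replicates of a group correlated between 0.957 and 0.987 over genes (Pearson, log2 scale). The third replicates at 0.25 and 0.5 µM stood apart from the other libraries on the third principal component (4.47% of the variance), at 70.1 and 75.4 against -42.5 to 16.0 elsewhere, and their scaling factors were the highest (1.28 and 1.22, others 0.784 to 1.11). Erythroid markers of the line were expressed in untreated cells, with a summed level of 2930 to 3287 CPM (counts per 1000000, on scaled library sizes) for GATA1, HBG1, HBG2, HBZ and TFRC.

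At 1 µM, 7 of the 10 Notch genes were higher than in untreated cells, 1 was lower and 2 were not called. The largest rises were in NOTCH2 (53.9-fold), NOTCH3 (29.6-fold) and JAG1 (23.1-fold), all of them low in untreated cells. NOTCH1 rose 5.42-fold, HEY1 4.85-fold, NRARP 2.16-fold and HES1 1.62-fold, while JAG2 fell to 0.439 of its untreated level. A gene was called when its adjusted p was under 0.05 in edgeR's quasi-likelihood test of all 15 libraries, with Benjamini-Hochberg adjustment over all tested genes. At the same dose 38.8% of all tested genes were called higher and 27.5% lower, so that a call by itself was common here. The median log2 fold change was 1.70 over the 10 Notch genes and 0.32 over all tested genes.

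**Figure D1:**
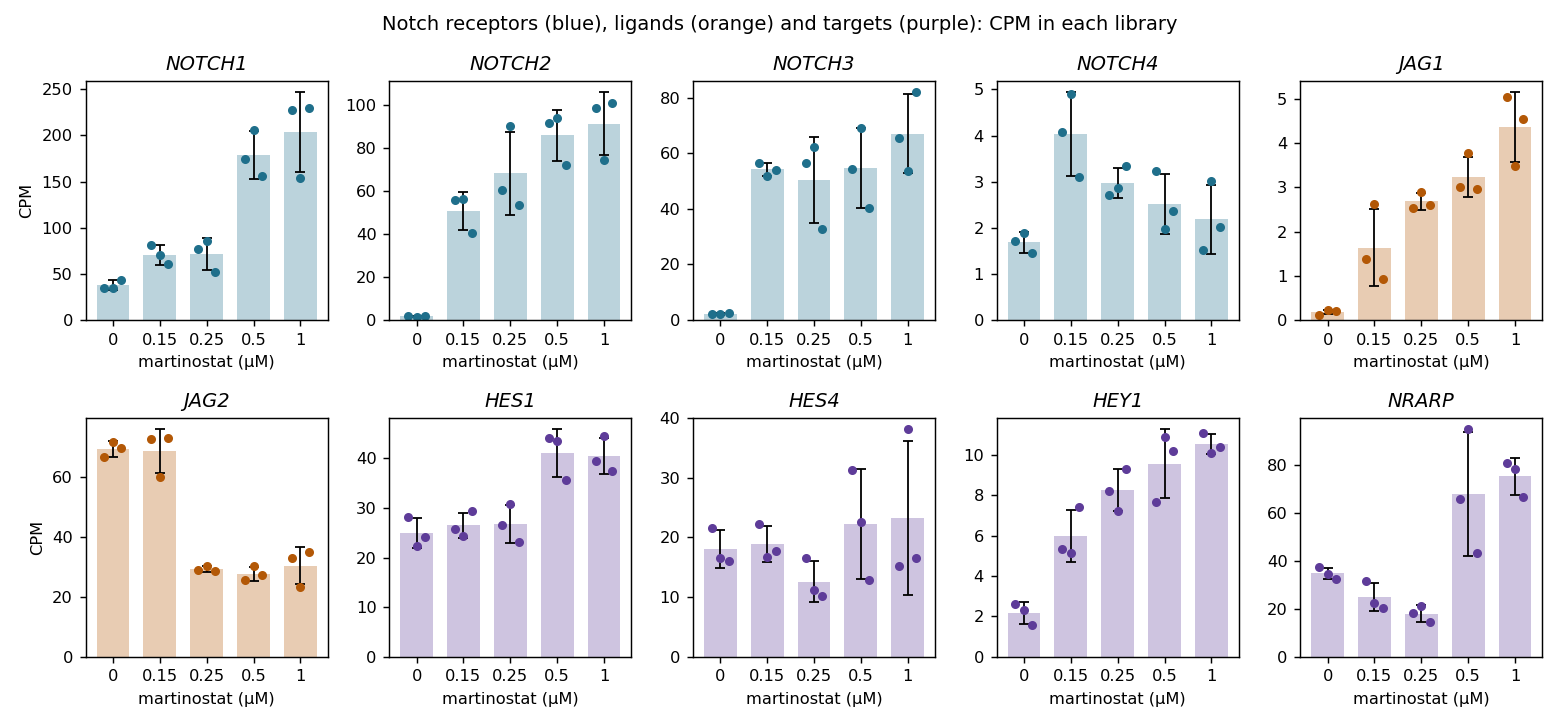
Level of each Notch gene in every library, in CPM (linear axis from 0), by martinostat dose in µM, with 0 for untreated cells. Points are libraries, bars the mean of 3 and error bars the SD; NOTCH2 and NOTCH3 were above every untreated library from 0.15 µM on, JAG2 was low from 0.25 µM, and NOTCH1, HES1 and NRARP were higher at 0.5 and 1 µM than at 0.25 µM.

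Among the receptors, NOTCH1 had the highest level per kilobase in untreated cells. NOTCH1 (ENSG00000148400, hg38 chr9:136494433-136546048, minus strand) is the receptor most often mutated in T cell leukemia. Its level was 34.8, 34.2 and 43.8 CPM in the untreated libraries, 81.7, 70.3 and 60.4 at 0.15 µM, and 76.7, 86.0 and 51.9 at 0.25 µM. It was 174, 206 and 156 CPM at 0.5 µM and 228, 154 and 229 at 1 µM. All libraries at 0.15 and 0.25 µM lay above the untreated ones, and all libraries at 0.5 and 1 µM lay above those. Its log2 fold change against untreated cells was 0.91 ± 0.20 (SE) at 0.15 µM (adjusted p = 0.000814, edgeR), 0.93 ± 0.20 at 0.25 µM (adjusted p = 0.000514), 2.25 ± 0.21 at 0.5 µM (adjusted p = 1.52e-08) and 2.44 ± 0.21 at 1 µM (adjusted p = 5.45e-09). The step from 0.25 to 0.5 µM was 1.32 ± 0.20 on the log2 scale (adjusted p = 4.99e-05), and it was 1.24 without the third replicates of both doses.

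NOTCH2 and NOTCH3 were low before treatment and made their largest step at the lowest dose. NOTCH2 (ENSG00000134250, chr1:119911553-120100779, minus strand) was at 1.80, 1.24 and 2.03 CPM in untreated cells and at 55.9, 56.1 and 40.7 at 0.15 µM. It was at 60.7, 90.4 and 53.7 CPM at 0.25 µM, 91.8, 93.8 and 72.2 at 0.5 µM, and 98.5, 74.4 and 101 at 1 µM. The lowest treated library of NOTCH2 thus stood far above the highest untreated one, and neighbouring doses overlapped. The log2 fold change was 4.91 ± 0.25 at 0.15 µM (adjusted p = 2.11e-11) and 5.75 ± 0.26 at 1 µM (adjusted p = 1.23e-12, edgeR), and 1 µM was above 0.15 µM by 0.84 ± 0.20 (adjusted p = 0.00223).

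NOTCH3 (ENSG00000074181, chr19:15159038-15200995, minus strand), best known from vascular smooth muscle, was at 2.13, 2.05 and 2.62 CPM in untreated cells. It was at 56.6, 52.0 and 54.1 CPM at 0.15 µM, 56.4, 62.2 and 32.9 at 0.25 µM, 54.3, 69.2 and 40.3 at 0.5 µM, and 65.7, 53.8 and 81.9 at 1 µM. Treated libraries did not overlap the untreated ones, and the doses overlapped one another. Its log2 fold change was 4.58 ± 0.27 at 0.15 µM (adjusted p = 1.72e-10) and 4.89 ± 0.27 at 1 µM (adjusted p = 2.73e-11, edgeR); the difference between these doses was 0.31 ± 0.22 (adjusted p = 0.274), or 0.34 (adjusted p = 0.0348) without the third replicates at 0.25 and 0.5 µM. The lowest values of NOTCH3 at 0.25 and 0.5 µM were those of the third replicates, and without both the change against untreated cells was 4.73 and 4.80, against 4.47 and 4.59 with them.

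NOTCH2 and NOTCH3 had the most alike patterns of any pair of Notch genes, with a Pearson correlation of 0.986 over the 15 libraries (log2 of CPM + 1), a description across libraries that share their doses. Their promoters are shown because the genes rose together. The 250 bases before the RefSeq start of each (GRCh38.p14, minus strand, read 5′ to 3′) are given with capitals for any match to the RBPJ core GTGGGAA (or TTCCCAC) or to the N-box CACNAG (or CTNGTG), the latter a sequence bound by HES factors:
NOTCH2 (chr1:120069663-120069912): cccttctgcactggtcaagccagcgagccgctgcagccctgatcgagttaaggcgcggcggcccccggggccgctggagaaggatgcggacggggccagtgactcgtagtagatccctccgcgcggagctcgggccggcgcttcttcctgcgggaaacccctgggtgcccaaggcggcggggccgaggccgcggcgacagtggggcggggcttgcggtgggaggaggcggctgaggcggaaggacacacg
NOTCH3 (chr19:15200996-15201245): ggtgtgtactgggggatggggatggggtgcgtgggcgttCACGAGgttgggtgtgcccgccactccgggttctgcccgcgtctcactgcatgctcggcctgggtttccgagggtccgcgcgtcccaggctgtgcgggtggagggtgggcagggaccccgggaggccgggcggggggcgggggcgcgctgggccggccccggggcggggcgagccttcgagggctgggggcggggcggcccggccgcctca
The NOTCH2 window held neither motif and the NOTCH3 window 1 N-box and no RBPJ core; an N-box is in 32.0% of 27305 promoter windows of this length. The windows were rich in G and C, at 72.8% and 78.0%. The RefSeq start of NOTCH2 lies inside the longer gene model of GENCODE, where this window holds no exon of the gene.

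NOTCH4 (ENSG00000204301, chr6:32194843-32224067, minus strand), a receptor of endothelial cells, stayed low, with its highest level at 0.15 µM. It was at 1.72, 1.89 and 1.45 CPM in untreated cells, 4.08, 4.91 and 3.10 at 0.15 µM, 2.71, 2.86 and 3.33 at 0.25 µM, 3.22, 1.97 and 2.37 at 0.5 µM and 1.53, 3.00 and 2.02 at 1 µM. Libraries at the 3 lower doses lay above all untreated ones, and those at 1 µM overlapped them. Its log2 fold change was 1.25 ± 0.30 at 0.15 µM (adjusted p = 0.00178), 0.82 ± 0.30 at 0.25 µM (adjusted p = 0.0239), 0.57 ± 0.30 at 0.5 µM (adjusted p = 0.102) and 0.37 ± 0.30 at 1 µM (adjusted p = 0.288, edgeR). By library totals the change at 0.5 µM was 0.95 and was called (adjusted p = 0.0158), and with factors set by genes averaging 10 CPM or more NOTCH4 was called at 0.5 µM (0.99, adjusted p = 0.00937) and at 1 µM (0.76, adjusted p = 0.0403). NOTCH4 was lower at 1 µM than at 0.15 µM, with a difference of -0.88 ± 0.29 on the log2 scale (adjusted p = 0.0199). Neither the 0.25 µM call nor this one was stable: leaving out replicate 1 or 3 of the untreated cells, or replicate 3 at 0.25 µM, gave 0.82, 0.71 and 0.75 with adjusted p of 0.0519, 0.0864 and 0.0687, and the difference between 1 and 0.15 µM lost its call without replicate 2 at 0.15 µM (adjusted p = 0.0967) or replicate 1 or 3 at 1 µM (adjusted p = 0.107 and 0.0671).

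Levels of different receptors were set side by side per length, as CPM per kilobase of merged exons. The receptor sum was 3.51 ± 0.457 (SD, n = 3) in untreated cells, 14.9 ± 1.49 at 0.15 µM, 15.5 ± 4.01 at 0.25 µM, then 25.5 ± 4.18 at 0.5 µM and 29.1 ± 5.55 at 1 µM. NOTCH1 made up 85.3% ± 1.01 of it in untreated cells, 37.9% ± 1.96 at 0.15 µM, 37.0% ± 1.19 at 0.25 µM, then 56.2% ± 1.99 at 0.5 µM and 55.8% ± 2.21 at 1 µM. NOTCH3 made up 6.85% ± 0.0715 before treatment and 39.0% ± 3.62 at 0.15 µM, and NOTCH2 2.86% ± 0.504 and 20.4% ± 2.05. The share of NOTCH1 was thus lowest at the 2 lower doses and in between at the 2 higher ones, with no overlap between those 3 levels. NOTCH4 went from 5.02% ± 1.22 to 0.827% ± 0.461 at 1 µM. The order of the receptors depended on the length used: with the canonical transcript, NOTCH1 was ahead of NOTCH3 at 0.15 µM (39.4% and 33.6%), and NOTCH2 ahead of NOTCH3 at 1 µM (21.5% and 20.7%, where merged exons give 18.8% and 24.6%).

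**Figure D2:**
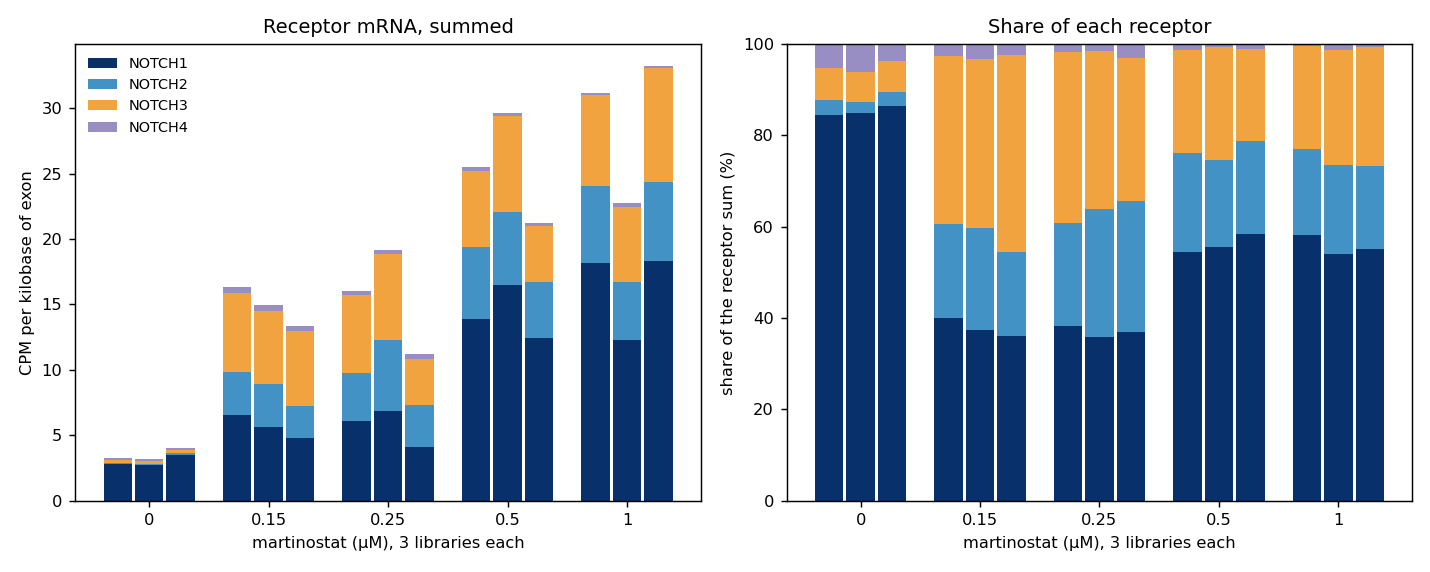
Receptor RNA in every library by martinostat dose in µM (0 for untreated), stacked by receptor. Left, CPM per kilobase of merged exons; right, the share of each receptor in that sum in %: NOTCH1 filled 85.3% in untreated cells, 37.9% at 0.15 µM and 55.8% at 1 µM, on average over 3 libraries.

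Human NOTCH2 has partial copies (NOTCH2NLA, NOTCH2NLB, NOTCH2NLC and NOTCH2NLR) whose sequence nearly matches its first exons, so that reads from those exons could be lost or shifted in counting. Of these 4 genes 1 passed the filter, NOTCH2NLC, which went from 14, 4 and 6 counts in untreated cells to 37, 53 and 49 at 1 µM (log2 fold change 2.33 ± 0.47, adjusted p = 0.000233, edgeR). NOTCH2 itself went from 128 counts over 3 libraries to 7824, and NOTCH2NLC from 24 to 139. In untreated cells NOTCH2NLB held 2 counts more and NOTCH2NLR 1, so that the copies were a larger part beside NOTCH2 there than at 1 µM. How many shared reads were lost in counting is not known. NOTCH2NLC changed by 3.02 without untreated replicate 1, its highest untreated library, and it passed the filter through treated libraries alone.

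The 2 Jagged ligands went in opposite directions. JAG1 (ENSG00000101384, chr20:10637684-10673999, minus strand), a ligand of stromal and endothelial cells mutated in Alagille syndrome, had 3, 6 and 5 counts in the untreated libraries, which is 0.123, 0.232 and 0.196 CPM. It was at 1.37, 2.61 and 0.929 CPM at 0.15 µM, 2.54, 2.90 and 2.60 at 0.25 µM, 3.00, 3.77 and 2.96 at 0.5 µM and 5.04, 3.49 and 4.53 at 1 µM. Every treated library lay above every untreated one, and JAG1 remained the lowest or next to lowest of the 10 genes per kilobase at all doses. JAG1 rose by 3.12 ± 0.43 on the log2 scale at 0.15 µM (adjusted p = 7.09e-06) and 4.53 ± 0.42 at 1 µM (adjusted p = 1.75e-08, edgeR), with 1.41 ± 0.32 between these doses (adjusted p = 0.00154). An antisense gene covers 3.29% of its exon bases.

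JAG2 (ENSG00000184916, chr14:105140982-105168824, minus strand), the other Jagged ligand, was the fourth of the 10 genes per kilobase before treatment. It was at 66.5, 71.7 and 69.6 CPM in untreated cells and at 72.7, 60.02 and 72.9 at 0.15 µM. It was at 29.1, 30.3 and 28.5 CPM at 0.25 µM, 25.7, 30.2 and 27.2 at 0.5 µM and 33.1, 23.3 and 34.9 at 1 µM. The libraries thus fell into a high set up to 0.15 µM and a low set from 0.25 µM, with no value between 34.9 and 60.02 CPM. At 0.15 µM JAG2 differed from untreated cells by -0.02 ± 0.15 on the log2 scale (95% interval -0.32 to 0.29, adjusted p = 0.941), a sign that changed with the scaling. Its difference was -1.24 ± 0.15 at 0.25 µM (adjusted p = 8.87e-07), -1.32 ± 0.15 at 0.5 µM (adjusted p = 2.88e-07) and -1.19 ± 0.15 at 1 µM (adjusted p = 1.13e-06, edgeR). A neighbouring gene on the same strand shares 7.33% of its exon bases.

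Between 0.15 and 0.25 µM, JAG2 was the 1 Notch gene of 10 that was called, with a difference of -1.23 ± 0.15 (adjusted p = 6.70e-05), and it was -1.19 without the third replicates at 0.25 and 0.5 µM. In that comparison 4.96% of all tested genes were called higher and 7.32% lower. Without those libraries NOTCH2 was called as well (0.59, adjusted p = 0.0234), as was JAG1 without replicate 2 at 0.15 µM (1.212, adjusted p = 0.0312), so that 2 genes were called in either case.

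**Figure D3:**
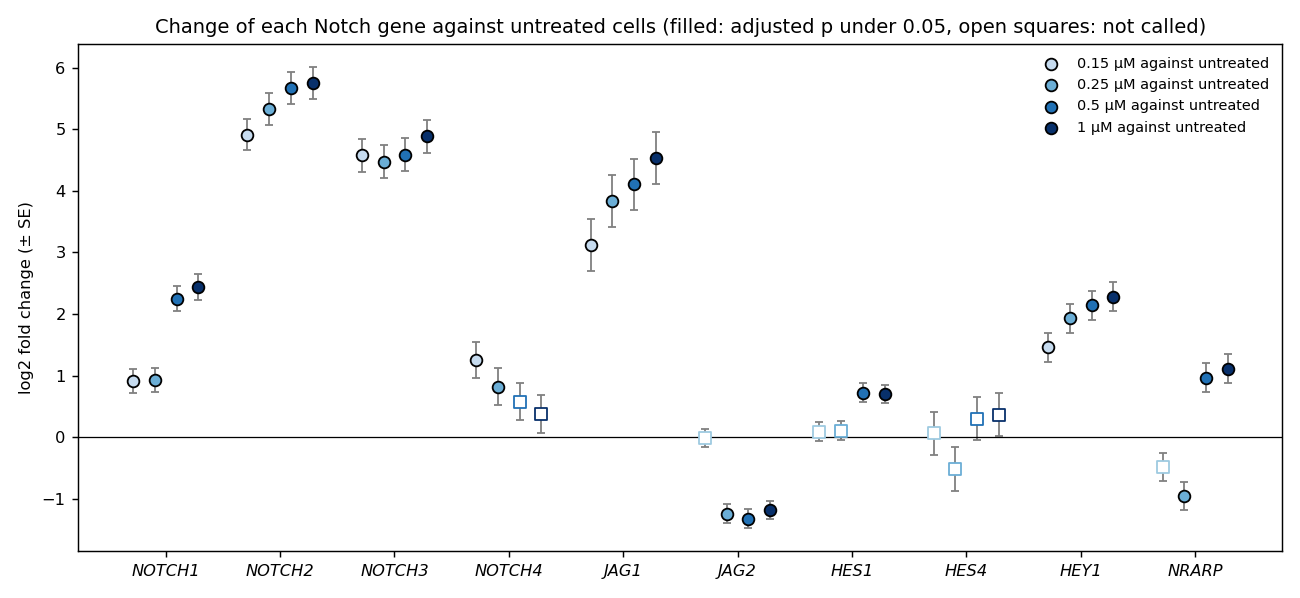
Log2 fold change of each Notch gene at each dose against untreated cells (vertical axis; error bars are the SE of the fit, 3 libraries a group). Filled circles were called at an adjusted p under 0.05 and open squares were not: NOTCH2 lay between 4.91 and 5.75 at all doses, JAG2 at -1.19 or below from 0.25 µM on, and NRARP went from -0.96 at 0.25 µM to 0.97 at 0.5 µM.

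Of the target genes, HEY1 was called at every dose, HES1 at 0.5 and 1 µM and HES4 at none, and NRARP was lower at 0.25 µM and higher at 0.5 and 1 µM. HES1 (ENSG00000114315, chr3:194136148-194138732, plus strand), a repressor of the basic helix-loop-helix class and the standard readout of Notch activity, was at 28.3, 22.2 and 24.2 CPM in untreated cells. It was at 25.8, 24.4 and 29.3 CPM at 0.15 µM, 26.5, 30.7 and 23.1 at 0.25 µM, 44.2, 43.6 and 35.6 at 0.5 µM and 39.4, 44.5 and 37.4 at 1 µM. The 2 lower doses overlapped untreated cells, and the 2 higher doses lay above all libraries of the other groups. Its log2 fold change was 0.09 ± 0.15 (95% interval -0.23 to 0.41, adjusted p = 0.650) at 0.15 µM, 0.10 ± 0.15 at 0.25 µM (-0.21 to 0.42, adjusted p = 0.568), 0.72 ± 0.15 at 0.5 µM (adjusted p = 0.000364) and 0.70 ± 0.15 at 1 µM (adjusted p = 0.000494, edgeR). Both uncalled values depended on the scaling: by library totals HES1 was higher by 0.44 at 0.15 µM (adjusted p = 0.0140) and 0.62 at 0.25 µM (adjusted p = 0.00101). The step from 0.25 to 0.5 µM was 0.62 ± 0.15 (adjusted p = 0.00399), and 0.63 without the third replicates.

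NRARP (ENSG00000198435, chr9:137299631-137302271, minus strand) encodes a small ankyrin-repeat protein that is induced by Notch and limits the activity of the intracellular domain. It was at 37.3, 34.4 and 32.5 CPM in untreated cells, 31.4, 22.3 and 20.5 at 0.15 µM and 18.1, 21.3 and 14.4 at 0.25 µM. It was at 65.8, 94.9 and 43.2 CPM at 0.5 µM and 80.6, 78.4 and 66.6 at 1 µM. The libraries of the 2 lower doses all lay below the untreated ones and those of the 2 higher doses all above them, the nearest being the third replicate at 0.5 µM. Its log2 fold change was -0.49 ± 0.23 at 0.15 µM (adjusted p = 0.0835), -0.96 ± 0.23 at 0.25 µM (adjusted p = 0.00161), 0.97 ± 0.23 at 0.5 µM (adjusted p = 0.00119) and 1.11 ± 0.23 at 1 µM (adjusted p = 0.000348, edgeR). By library totals the fall at 0.25 µM was -0.45 and was not called (adjusted p = 0.0596), whereas the value at 0.15 µM was called lower in 7 of 24 alternatives, among them without replicate 1 at 0.15 µM (-0.70, adjusted p = 0.0297) or replicate 2 or 3 at 0.5 µM (adjusted p = 0.0423 and 0.0231). The step from 0.25 to 0.5 µM was 1.92 ± 0.24 (adjusted p = 6.76e-06), the largest of the 10 genes, and 2.04 without the third replicates. An antisense gene covers 2.76% of its exon bases.

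HEY1 (ENSG00000164683), a repressor related to HES1 that is active in vessels and heart, was at 2.62, 2.32 and 1.57 CPM in untreated cells. It was at 5.34, 5.12 and 7.43 CPM at 0.15 µM, 8.20, 7.23 and 9.29 at 0.25 µM, 7.64, 10.9 and 10.2 at 0.5 µM and 11.1, 10.1 and 10.4 at 1 µM. Every treated library lay above the untreated ones, and neighbouring doses overlapped. HEY1 rose by 1.46 ± 0.23 on the log2 scale at 0.15 µM (adjusted p = 4.17e-05), 1.93 ± 0.23 at 0.25 µM (adjusted p = 1.01e-06), 2.14 ± 0.24 at 0.5 µM (adjusted p = 1.94e-07) and 2.28 ± 0.24 at 1 µM (adjusted p = 8.55e-08, edgeR), and 1 µM was above 0.15 µM by 0.82 ± 0.22 (adjusted p = 0.00516).

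HES4 (ENSG00000188290, chr1:998962-1000172, minus strand), a further factor of the HES class, was called in no comparison with all 15 libraries fitted as above, and without the filter on low counts it was called lower at 0.25 µM (-0.53, adjusted p = 0.0373). It was at 21.6, 16.5 and 16.0 CPM in untreated cells, 22.2, 16.6 and 17.7 at 0.15 µM, 16.5, 11.1 and 10.2 at 0.25 µM, 31.2, 22.6 and 12.8 at 0.5 µM and 15.2, 38.1 and 16.5 at 1 µM. Each treated group overlapped the untreated one, and 1 library, replicate 2 at 1 µM, was far above the others of its dose, with 1104 counts against 427 and 473. The log2 fold change at 1 µM was 0.37 ± 0.35 (95% interval -0.38 to 1.11, adjusted p = 0.371, edgeR), and -0.19 without that library. HES4 has a short transcript (1118 exon bases), and in that library the deviation of genes from their group mean ran against exon length (Spearman correlation -0.317 over 16334 genes, the lowest of the 15 libraries). Its part in the value of HES4 was not tested.

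The promoters of HES1 and HES4 are shown because they were the 2 of 9 matched Notch genes whose 250 upstream bases held the RBPJ core GTGGGAA, against 5.46% of the 27305 promoter windows of the same length. Capitals mark the RBPJ core and, in HES1, the N-boxes (RefSeq, GRCh38.p14, 5′ to 3′ on the strand of the gene):
HES1 (chr3:194135898-194136147): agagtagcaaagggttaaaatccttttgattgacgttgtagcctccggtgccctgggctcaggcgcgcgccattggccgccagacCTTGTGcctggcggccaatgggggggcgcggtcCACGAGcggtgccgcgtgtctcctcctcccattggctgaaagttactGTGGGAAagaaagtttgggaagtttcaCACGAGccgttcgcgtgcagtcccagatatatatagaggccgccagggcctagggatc
HES4, the match with 10 bases on either side: tggggcgagtGTGGGAAagaatgcgga
The core ended 79 bases before the RefSeq start of HES1 and 71 before that of HES4. In GENCODE, HES4 begins further upstream, and the last 75 bases of its window lie in its own exon, so that the HES4 match spans that start and most of it is exonic in that model. HES1 also had 3 N-boxes, and NOTCH3 and NOTCH4 had 1 each, so that 3 of 9 windows held an N-box. The matches did not overlap one another. The E-box CACGTG was in 0 of 9 windows and in 6.49% of all. No RBPJ core was found on either strand in the windows of NOTCH1, NOTCH2, NOTCH3, NOTCH4, JAG1, JAG2 or NRARP. HES1 and HES4 thus had the same letters near the start, and HES1 was called at 0.5 and 1 µM whereas HES4 was not; whether their changes differ was not tested.

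From 0.25 to 0.5 µM, 3 Notch genes were called higher (NOTCH1, HES1 and NRARP) and 0 lower, where 14.4% of all tested genes were called higher and 16% lower. Same-numbered libraries of these doses deviated together (correlations of 0.476 to 0.754). With the replicate number as a block in a fit of these 2 groups alone, 5 genes were called: NOTCH2 (0.35, adjusted p = 0.0197) and HES4 (0.75, adjusted p = 0.000814) in addition. With the block in the fit of all 15 libraries the count was 3. HES4 was also called in this step by DESeq2 (0.85, adjusted p = 0.0467), without the filter on low counts (0.81, adjusted p = 0.0014), and without replicate 3 at 0.5 µM (1.10, adjusted p = 0.0195) or replicate 2 at 1 µM (0.82, adjusted p = 0.0284), and NOTCH2 without replicate 2 at 0.25 µM (0.59, adjusted p = 0.0404).

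From 0.5 to 1 µM, 0 of the 10 Notch genes were called by edgeR and by DESeq2. With either, 0 of all tested genes were called (0% higher and 0% lower). By edgeR, 372 of 23711 genes had an unadjusted p under 0.05, a smaller share than the 0.05 that no difference at all would give. The 0 calls thus do not show equal levels at these doses. The 95% interval of the difference ran from -0.22 to 0.60 for NOTCH1, -0.33 to 0.51 for NOTCH2, -0.34 to 0.29 for HES1 and -0.33 to 0.62 for NRARP on the log2 scale. Differences within these bounds were not detectable here.

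Over the doses, 0.15 µM had 6 Notch genes called higher and 0 lower (31.9% and 19.4% of all tested genes), 6 higher and 2 lower at 0.25 µM (37.4% and 24.8%), and 7 higher and 1 lower at 0.5 µM (39.4% and 27.6%). Between 0.15 and 1 µM, 6 were higher (NOTCH1, NOTCH2, JAG1, HES1, HEY1 and NRARP) and 2 lower (NOTCH4 and JAG2), where 21.5% of all tested genes were higher and 23.1% lower. The medians of the log2 fold change over the 10 genes were 1.08, 0.87 and 1.55 at 0.15, 0.25 and 0.5 µM, against 0.28, 0.32 and 0.34 over all tested genes. These doses share the untreated libraries.

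Per kilobase of merged exons, HES4 was the highest of the 10 genes in untreated cells (16.1 ± 2.79 CPM per kilobase, SD), followed by NRARP (13.2 ± 0.917), HES1 (12.1 ± 1.49) and JAG2 (10.8 ± 0.408). NRARP and HES1 overlapped, as did HES1 and JAG2. NOTCH1 came next (3.00 ± 0.426), then HEY1 (0.395 ± 0.0988), NOTCH3 (0.241 ± 0.0331), NOTCH4 (0.173 ± 0.0230), NOTCH2 (0.101 ± 0.0245) and JAG1 (0.0197 ± 0.00598), none of which overlapped its neighbour. In untreated cells HES4, NRARP, HES1 and JAG2 thus stood above all receptors. At 1 µM the order was NRARP (28.5 ± 2.86), HES4 (20.8 ± 11.5), HES1 (19.6 ± 1.79) and NOTCH1 (16.3 ± 3.43), each overlapping the next. NOTCH3 (7.13 ± 1.501), NOTCH2 (5.45 ± 0.874) and JAG2 (4.76 ± 0.981) followed, also overlapping in that order, and HEY1 (1.92 ± 0.0922), JAG1 (0.468 ± 0.0851) and NOTCH4 (0.224 ± 0.0772) were separate. The level of HEY1 per kilobase depends on its model, whose merged exons cover 5487 bases where the canonical transcript has 2197.

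Genes whose pattern over the 15 libraries was most like that of a Notch gene were named by Pearson correlation of log2(CPM + 1) among 16355 genes, as a description. For NOTCH1 they included EPPK1 (0.987) and CABLES2 (0.983). For JAG1 they were NECTIN3 (0.982), DOCK4 (0.976) and TNFAIP1 (0.973), and for HES1 they were IRF7 (0.973), an interferon regulatory factor, FSTL3 (0.973) and DNAL4 (0.966). For HEY1 they were RASSF4 (0.975), DNAJB2 (0.975) and NELL2 (0.974).

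The rest of the pathway was read from 61 further genes, of which 57 were tested: 23 were higher, 21 lower and 13 not called at 1 µM, with a median log2 fold change of 0.0050. That is 40.4% higher and 36.8% lower, against 38.8% and 27.5% of all tested genes, so that the share of higher genes was near the background. Of the 57 genes, 9 were below the minimum of the filter in untreated cells (0.357 CPM in each library) and passed through treated libraries, so that they could hardly be called lower: DLL1, DLL4, HES2, HES7, MFNG, DTX1, DTX3, DTX4 and PTCRA. Among the other 48, 15 were higher and 21 lower. Of all 23711 tested genes 14939 reached that minimum, and the called shares among these were not computed. In a fit of the 14096 genes with at least 10 counts in every library, 9690 were called at 1 µM, 4998 of them higher. Their median log2 fold change was 0.050, so that the values of all tested genes are no matched background for expressed genes. At 0.15 µM, 21 of the 57 genes were higher and 15 lower (31.9% and 19.4% of all tested genes). The counts were 21 and 17 at 0.25 µM (37.4% and 24.8%) and 25 and 20 at 0.5 µM (39.4% and 27.6%).

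**Figure D4:**
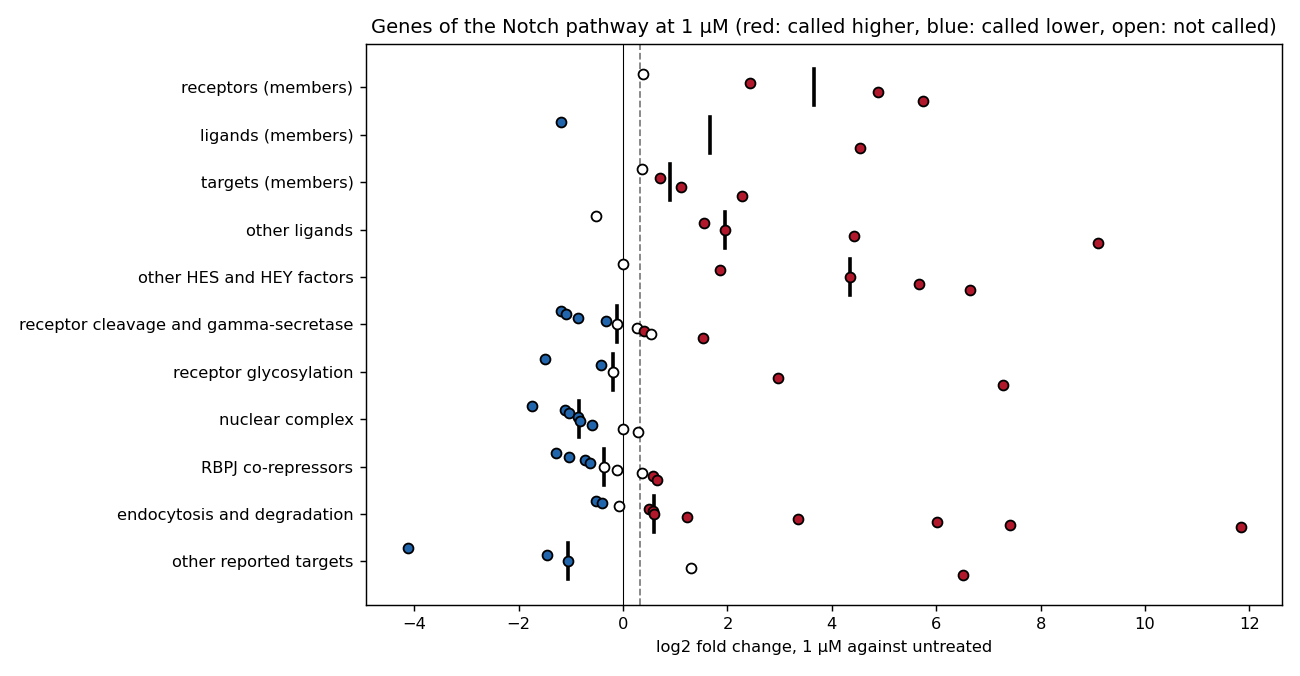
Log2 fold change at 1 µM against untreated cells (horizontal axis) of each tested gene of the Notch pathway, by list (vertical axis). Black bars are list medians and the dashed line the median of all tested genes (0.32). Of all tested genes, 38.8% were called higher and 27.5% lower. The other ligands and the other HES and HEY factors each had 4 of 5 tested genes called higher and 0 lower. In each of these lists 2 of the 4 (DLL1 and DLL4, HES2 and HES7) passed the filter through treated libraries alone. The nuclear complex had 6 of 8 called lower. Points for DLL1, HES2, MFNG, DTX1 and DTX3, with 0 to 6 untreated counts in all, depend on the prior count of the fit.

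Of the other ligands, 4 of 5 tested were higher and 0 lower at 1 µM (38.8% and 27.5% of all tested genes), and 2 of these 4, DLL1 and DLL4, passed the filter through treated libraries alone. DLL1, a Delta-type ligand, had 0 counts in each untreated library and 68, 81 and 57 at 1 µM, which is at least 60.7-fold higher, taking 3 counts over the untreated group as the floor. It was already at 43, 40 and 40 counts at 0.15 µM. DLL4, the Delta ligand of sprouting vessels, went from 0.409, 0.232 and 0.548 CPM to 9.80, 8.81 and 7.18 at 1 µM (log2 fold change 4.43 ± 0.37, adjusted p = 4.09e-09, edgeR). For neither ligand did the libraries at 1 µM overlap the untreated ones.

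Of the other HES and HEY factors, 4 of 5 tested were higher and 0 lower at 1 µM (38.8% and 27.5% of all), 2 of the 7 listed did not pass the filter, and HES2 and HES7 passed it through treated libraries alone. HEYL, a HEY1 relative, went from 1.06, 0.850 and 0.939 CPM to 50.04, 41.7 and 53.6 (log2 fold change 5.67 ± 0.21, adjusted p = 9.02e-14, edgeR), and was at 22.5, 21.3 and 27.0 at 0.15 µM. HES2 went from 0.245, 0 and 0 CPM to 7.70, 9.36 and 7.99 (6.64 ± 0.50, adjusted p = 1.12e-09). Its size rests on untreated replicate 1, which holds all 6 untreated counts: without it the others are at 0 and the fitted value, 10.9, is no bound. Both rose more on the log2 scale than HES1 did, a difference that was not tested.

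The nuclear complex that carries the signal had 0 genes higher and 6 of 8 lower at 1 µM (38.8% and 27.5% of all tested genes), with a median of -0.84. MAML2, a Mastermind co-activator, went from 31.1, 35.6 and 37.8 CPM to 9.76, 9.53 and 11.8 (-1.75 ± 0.21, adjusted p = 6.93e-07, edgeR). SNW1, a co-activator that is also part of the spliceosome, went from 80.2, 99.1 and 97.1 CPM to 43.5, 39.8 and 44.2 (-1.12 ± 0.14, adjusted p = 9.95e-07). RBPJ itself, chosen here after its values were seen, went from 133, 132 and 147 CPM to 71.7, 77.3 and 84.9 (-0.82 ± 0.13, adjusted p = 1.89e-05). All 3 were lower in every library at 1 µM than in any untreated one.

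Of the RBPJ co-repressors, 2 of 9 tested were higher and 4 lower (22.2% and 44.4%, against 38.8% and 27.5% of all tested genes). CTBP2 went from 6.83, 6.03 and 5.75 CPM to 2.52, 3.11 and 2.02 (-1.28 ± 0.34, adjusted p = 0.00297, edgeR) and CTBP1, its close relative, from 155, 133 and 130 to 71.0, 71.0 and 62.7 (-1.03 ± 0.14, adjusted p = 2.90e-06). Genes on the other strand cover 34.2% of the exon bases of CTBP2 and 14.3% of those of CTBP1.

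Receptor cleavage had 2 genes higher and 4 lower of 9 (22.2% and 44.4%, against 38.8% and 27.5% of all tested genes), the same shares as the co-repressors. APH1A and APH1B are alternative subunits of gamma-secretase. APH1B went from 12.9, 16.7 and 15.5 CPM to 45.4, 40.5 and 43.8 (1.53 ± 0.14, adjusted p = 2.32e-08, edgeR) and APH1A from 221, 207 and 207 to 81.2, 120 and 78.5 (-1.18 ± 0.23, adjusted p = 0.000182). The 2 subunits moved in opposite directions.

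Receptor glycosylation had 2 genes higher and 2 lower of 5 (38.8% and 27.5% of all tested genes). The higher genes were the Fringe enzymes MFNG and LFNG, and MFNG passed the filter through treated libraries alone. Fringe enzymes add sugars to the receptors and so change their response to Jagged and Delta ligands. RFNG, the other Fringe of the list, was at a mean of 22.2 CPM in untreated cells and was not called higher. MFNG had 0, 2 and 0 counts in untreated cells and 131, 159 and 116 at 1 µM, a ratio of levels of 180 (95% counting interval 49.4 to 1488). LFNG went from 1.43, 1.24 and 1.10 CPM to 9.09, 8.81 and 11.4 (2.96 ± 0.26, adjusted p = 1.02e-08, edgeR).

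Endocytosis and degradation had 8 genes higher and 2 lower of 11 (72.7% and 18.2%, against 38.8% and 27.5% of all). Of the 8, DTX1, DTX3 and DTX4 passed the filter through treated libraries alone. DTX1 and DTX4 are Deltex ubiquitin ligases, and DTX1 is itself a Notch target in lymphocytes. DTX1 had 0 counts in each untreated library and 430, 475 and 466 at 1 µM (at least 404-fold higher, against 3 counts over the group), and DTX4 went from 0.0818, 0.0772 and 0.157 CPM to 18.6, 16.2 and 21.4 (7.41 ± 0.34, adjusted p = 1.55e-12, edgeR). At 0.15 µM DTX1 had 83, 73 and 75 counts, between its untreated counts and those at 1 µM. It had 316, 411 and 431 counts at 0.5 µM, which overlapped those at 1 µM.

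Of the other reported targets, 1 of 5 tested was higher and 3 were lower at 1 µM (38.8% and 27.5% of all tested genes). MYC, a direct NOTCH1 target in T cell leukemia, went from 574, 670 and 587 CPM to 29.0, 32.0 and 43.9 (-4.13 ± 0.27, adjusted p = 1.68e-10, edgeR). CDKN1A, the cell cycle inhibitor p21, went from 2.86, 3.82 and 5.01 CPM to 340, 413 and 314 (6.51 ± 0.25, adjusted p = 1.88e-13). These were the largest changes of the list in either direction, by which they were named.

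Markers of the line and of other cell types moved with dose in the same libraries. At 1 µM, where 38.8% of all tested genes were called higher and 27.5% lower, 4 of the 5 erythroid markers were lower and 0 higher. Their summed level was 810 to 944 CPM. The endothelial markers had a sum of 0.193 to 0.470 CPM in untreated cells and 17.5 to 23.9 at 1 µM, of which KDR alone had a mean of 16.1 ± 2.15 (SD, n = 3). Over the 3 untreated libraries PECAM1 had 6 counts, CDH5 0, VWF 2 and KDR 4, so that these 4 passed the filter through treated libraries alone and could only be called higher. TEK did not pass it, with 11 counts in untreated cells and 14 at 1 µM. Of the fibroblast markers, 2 of 4 tested were higher and 1 lower, with PDGFRA and DCN tested through treated libraries alone, and the sum went from 21.9 to 25.4 CPM to 302 to 488, of which COL1A1 alone had a mean of 398 ± 94.4 (SD, n = 3); LUM had 0 counts in untreated cells. Of the 5 lymphocyte markers 1 was higher and 2 lower, with a median log2 fold change of 0.84. CD79A was tested through treated libraries alone. In untreated cells PTPRC alone had a mean of 57.9 ± 3.64 CPM (SD, n = 3). The sum went from 62.8 to 70.6 CPM in untreated cells to 11.3 to 16.0 at 1 µM. The summed levels in the groups between these were 1300 to 1413, 801 to 1117 and 583 to 927 CPM for the erythroid markers, by rising dose, and 7.91 to 8.84, 16.9 to 28.5 and 20.4 to 29.1 for the endothelial ones. They were 272 to 364, 271 to 373 and 347 to 450 CPM for the fibroblast markers and 77.6 to 94.1, 41.4 to 46.7 and 11.0 to 11.9 for the lymphocyte markers. The endothelial and fibroblast sums were thus raised from 0.15 µM on, as NOTCH2, NOTCH3 and JAG1 were. The erythroid sum was lower from that dose, where 2 of its 5 markers were called lower and 3 were not called. Of all tested genes, 19.4% were called lower at 0.15 µM. Between untreated cells and 0.15 µM the mean of HBZ went from 1052 to 332 CPM and that of TFRC from 1228 to 423. GATA1 was at 328 and 313 CPM. The part of these marker changes in those of NOTCH2, NOTCH3, NOTCH4, JAG1, HEY1 or DLL4 was not tested. All groups were the same line, and in a bulk sample more cells expressing a marker and more RNA per cell cannot be told apart.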

How the data were processed

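K-562 RNA was sequenced by the authors as paired ends from a directional poly(A) library. Reads were trimmed (Trim Galore 0.6.10 and Trimmomatic), aligned to hg38 (HISAT2 2.2.1) and counted per GENCODE gene (featureCounts 1.5.3); the strand setting of the counting is not given in the sources used here. The deposited table holds raw counts, which were used as deposited; the deposited FPKM files were not used.

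Counts were fitted with edgeR 4.0.16 (R 4.3.3): filterByExpr, TMM scaling, robust quasi-likelihood, 5 groups, all 15 libraries, no covariate; an adjusted p under 0.05 was a call. DESeq2 1.42.0, other scalings, filters and left-out libraries were alternatives. CPM used TMM-scaled sizes. Exon lengths and positions came from GENCODE 44, a later release than the paper names for the counting, and promoters from RefSeq. Among the members, NOTCH2 and HEY1 have another version of their gene model in GENCODE 44. Their levels per kilobase thus rest on lengths that may differ from the exons counted. The fit was also run on simulated counts in which few genes were changed, evenly up and down. Here most genes were called against untreated cells, so that run cannot show whether the scaling holds in these data. Intervals of counts cover counting error only. The members and gene lists were chosen with earlier results of these data known. Named were all 10 members and, in each other list, the 2 called genes with the largest change at 1 µM. No 2 libraries of a group agreed within sampling noise (chi-square per degree of freedom of 5.85 or more). Replicate numbers were taken as pairs where each same-numbered pair deviated together by over 0.1, which held between 0.25 and 0.5 µM alone (0.476 to 0.754); the labels do not say what a number shares. A marker of the erythroid list and a gene with a pattern like that of NOTCH1 are not reported here, and the erythroid sums leave the former out.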

Additional observations from a re-analysis of the deposited data

How the results depend on the processing

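Results were recomputed under 24 alternatives, or 25 for 0.5 against 0.25 µM; with 10 counts required in each library, JAG1, NOTCH2NLC, DLL1, DLL4, HES2, MFNG, DTX1 and DTX4 were not tested, which leaves 23 (24 for JAG1 in that step). Of 42 calls of a Notch gene in a comparison, 39 were never lost and 0 changed sign; the losses were NOTCH4 at 0.25 µM (5 of 24), NOTCH4 between 1 and 0.15 µM (3 of 24) and NRARP at 0.25 µM (1 of 24). All values of the 17 named genes of the other lists at 1 µM kept their call and direction, 401 in all, but without 1 untreated library HES2 ranged from 6.06 to 10.9 and NOTCH2NLC from 2.00 to 3.02. Counts of called Notch genes moved beyond 1.5 times from 0.15 to 0.25 µM, to 2 without replicate 3 at 0.25 and 0.5 µM (chosen after seeing the data), and from 0.25 to 0.5 µM, to 5 with 2 groups and the replicate block (also added later); with the replicate block in all 15 libraries the counts were 7, 8, 8 and 8 against untreated cells and no call was lost. Leaving out 1 library gave 6 to 7, 7 to 8, 8 to 8 and 8 to 8 calls against untreated cells in order of dose, 1 to 2 from 0.15 to 0.25 µM, 3 to 4 from 0.25 to 0.5 µM, 0 from 0.5 to 1 µM and 7 to 8 from 0.15 to 1 µM.

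Scaling moved all genes: against untreated cells, in order of dose, the median log2 fold change over all tested genes was 0.28, 0.32, 0.34 and 0.32, but 0.64, 0.85, 0.72 and 0.67 by library totals and 0.54, 0.73, 0.75 and 0.70 when only genes averaging 10 CPM or more set the factors. Of all calls, 62.2%, 60.1%, 58.8% and 58.5% were higher, but 81.9%, 79.2%, 70.2% and 69.3% by library totals and 75.8%, 75.3%, 71.1% and 70.1% with those factors; from 0.15 to 0.25 µM 40.4% were higher, but 56.8% with RLE factors, 61.6% by library totals and 64.7% with the factors of the higher genes, and from 0.25 to 0.5 µM 47.3%, but 34.8% by library totals. The Notch genes called at 0.25 µM were 7 higher and 1 lower by library totals. With that scaling 14764 of all 23711 tested genes were called at this dose, 11697 of them higher.

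Values that changed sign were all uncalled. JAG2 at 0.15 µM became 0.34 by library totals, 0.25 with factors set by genes averaging 10 CPM or more, 0.16 with 10 counts required in each library and 0.013 with 2 groups. NOTCH3 from 0.15 to 0.25 µM became 0.034 and 0.040 under the first 2 of these and 0.15 without replicate 3 of both doses; from 0.25 to 0.5 µM it became -0.036 by library totals. With those left out, the change from 0.5 to 1 µM became -0.022 for NOTCH2, -0.20 for HES4 and -0.084 for NRARP. With 1 library left out, against untreated cells, JAG2 at 0.15 µM ranged from -0.065 to 0.073, HES4 from -0.073 to 0.21 at 0.15 µM, -0.035 to 0.57 at 0.5 µM and -0.19 to 0.60 at 1 µM, and HES1 at 0.25 µM from -0.012 to 0.22. From 0.15 to 0.25 µM the ranges were -0.145 to 0.22 for NOTCH1, -0.10 to 0.13 for HES1 and -0.29 to 0.15 for NOTCH3, which ranged from -0.10 to 0.29 from 0.25 to 0.5 µM. From 0.5 to 1 µM they were -0.023 to 0.22 for NOTCH2, -0.50 to 0.010 for NOTCH4, -0.12 to 0.034 for HES1, -0.48 to 0.40 for HES4 and -0.095 to 0.47 for NRARP; from 0.15 to 1 µM HES4 ranged from -0.25 to 0.53. The causes were not tested. With 3 libraries a group, changes within the intervals given were not detectable.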
